A study of Homo sapiens with 6 samples.

Results

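The genes described here are 10 components of Wnt signalling: the ligand gene WNT5A, the receptor genes LGR5 and LGR4, the receptor-removing ubiquitin ligase genes ZNRF3 and RNF43, the secreted antagonist genes DKK1 and DKK3, the transcription factor genes TCF7 and LEF1, and the feedback target AXIN2. They were chosen by symbol from a table of 60691 genes, and all 10 were found in it. RNA was sequenced from SW1353 cells, an established human chondrosarcoma line, grown in 3% oxygen for 48 h after plating and infected with a lentivirus that expresses a short hairpin RNA (shRNA). The shSIRT1 group had 3 biological replicates and the shfirefly group, whose hairpin is directed at an insect luciferase absent from human cells, also had 3. Low oxygen and lentiviral infection were common to both groups. The sample names, treatment labels and design text give SIRT1, an NAD+-dependent deacetylase, as the hairpin's target. The treatment protocol alone gives EPAS1, which encodes HIF-2α. The name "shSIRT1" is used here as a library label.

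Total counts were 24993064 to 29564361 in shSIRT1 libraries and 28556696 to 32044191 in shfirefly libraries. SIRT1 mRNA was 12.9, 13.2 and 14.7 CPM (counts per 1000000, scaled between libraries by TMM) in shSIRT1 cells and 25.99, 24.8 and 24.0 CPM in shfirefly cells, and EPAS1 also fell (log2 fold change -0.97), so these levels do not tell which transcript the hairpin targets. Of 14 cartilage marker genes only 6 had enough counts to be tested, of which 3 rose and 2 fell. SOX9 averaged 53.1 ± 1.17 CPM in shSIRT1, against 43.7 ± 2.54 CPM in shfirefly (SD, n = 3 each). COL9A2 and MATN3 also rose (log2 fold change 1.35 and 0.35, adjusted p = 0.0013 and 0.032). ACAN and HAPLN1 fell (log2 fold change -1.16 and -0.91). COL2A1 had 8, 19 and 3 counts in shSIRT1, against 2, 1 and 0 in shfirefly, and COL9A1 and CNMD had none. Blood-cell markers (8 genes) summed to 0.424 to 0.782 CPM in shSIRT1, against 0.677 to 0.912 CPM in shfirefly. Endothelial markers (6 genes) summed to 1.87 to 2.51 CPM in shSIRT1, against 2.85 to 3.97 CPM in shfirefly. TEK fell (log2 fold change -0.75, adjusted p = 0.024), a call lost with library totals alone (adjusted p = 0.058), with DESeq2 (0.084), without shSIRT1 replicate 3 (0.13) and without shfirefly replicate 2 (0.052). Epithelial markers (8 genes, mostly KRT18) summed to 356 to 373 CPM in shSIRT1, against 309 to 319 CPM in shfirefly; EPCAM had 6, 20 and 4 counts in shSIRT1, against 3, 3 and 4 in shfirefly. The part of these markers in the results was not tested. In bulk RNA of this kind, fewer cells of a type and less RNA per cell cannot be told apart. Across all genes tested 26.8% were higher and 26.0% lower in shSIRT1 (edgeR quasi-likelihood test, Benjamini-Hochberg adjusted p under 0.05, the threshold for "rose" and "fell" throughout). Scaled by library size without TMM, 6225 genes rose and 3021 fell, where TMM gave 4449 and 4311, and the median log2 fold change of all genes moved to 0.13.

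Wnt proteins are secreted, lipid-modified ligands that bind Frizzled receptors. With the co-receptors LRP5 and LRP6 they stop the destruction of β-catenin, which then enters the nucleus and acts with TCF and LEF proteins. LGR4 and LGR5 bind R-spondins, and the complex removes ZNRF3 and RNF43, the ligases that would otherwise strip Frizzled from the cell surface. In growing cartilage Wnt signalling governs the passage of chondrocytes to maturity and is held in check by secreted antagonists.

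TCF and LEF proteins recognise a core of CTTTG, read as CAAAG on the other strand. RefSeq promoter windows (GRCh38.p14) were available for 6 of the 10 genes, as 9 windows of 250 bases before an annotated start; AXIN2, DKK3, LGR5 and ZNRF3 had no entry. The core was present in 5 of the 9 windows, belonging to DKK1, LEF1, RNF43 and TCF7, and in 42.1% of all 35116 windows of that length in the table. The longer match CTTTGAT was in none of the 9 (2.26% of all windows). ACGTG, a form of the core bound by hypoxia-inducible factors, was in none either (18.5% of all windows). The form GCGTG of that core was not searched, so these windows are not described as lacking the core. All 3 motifs were searched on both strands, and CTTTGAT contains CTTTG. The windows of 3 genes are shown because they contrast a transcription factor gene and a receptor gene that rose with an antagonist gene that was barely expressed; capitals mark the core. TCF7 is shown at its internal start (chr5:134123368-134123617, forward strand), LGR4 at chr11:27472791-27473040 (reverse strand) and DKK1 at chr10:52314031-52314280 (forward strand), each 5′ to 3′ along its gene.
TCF7: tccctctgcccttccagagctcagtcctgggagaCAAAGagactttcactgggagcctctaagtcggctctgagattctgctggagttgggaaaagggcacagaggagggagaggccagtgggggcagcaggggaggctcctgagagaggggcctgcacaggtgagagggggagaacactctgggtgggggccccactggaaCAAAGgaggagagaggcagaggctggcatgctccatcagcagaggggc
LGR4: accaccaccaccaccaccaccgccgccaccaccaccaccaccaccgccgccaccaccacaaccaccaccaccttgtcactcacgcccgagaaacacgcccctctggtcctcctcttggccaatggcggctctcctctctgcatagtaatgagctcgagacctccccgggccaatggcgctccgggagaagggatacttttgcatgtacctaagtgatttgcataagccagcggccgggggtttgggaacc
DKK1: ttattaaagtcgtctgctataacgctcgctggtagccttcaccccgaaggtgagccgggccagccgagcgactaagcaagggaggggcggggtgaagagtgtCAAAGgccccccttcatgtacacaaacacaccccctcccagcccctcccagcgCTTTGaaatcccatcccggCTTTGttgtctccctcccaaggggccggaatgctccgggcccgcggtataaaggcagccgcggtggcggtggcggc
The TCF7 window held the core 216 and 48 bases before the start, and the DKK1 window held it 148, 95 and 76 bases before. The other TCF7 window, at its upstream start (chr5:134115363-134115612, forward strand), had no match, nor had the LGR4 window. A match in a window is a description of letters and was not related here to binding.

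LGR5, LGR4, ZNRF3 and TCF7 rose in shSIRT1 cells. Of the 10 genes, 9 had enough counts to be tested, and the other 5 tested genes (WNT5A, RNF43, DKK3, LEF1 and AXIN2) did not pass. The 4 rises among 9 stood beside 26.8% of all 16591 tested genes that rose, and the share called in either direction, 44.4%, beside 52.8% of all genes. LGR5 changed the most, 2.72-fold, followed by TCF7 at 1.87-fold, ZNRF3 at 1.32-fold and LGR4 at 1.29-fold. The median log2 fold change of the 9 genes was 0.11, and that of all tested genes was 0.00468. CPM ranges of the groups were apart, with shSIRT1 higher, for 5 of the 9, and for 30.4% of all tested genes (59.7% counting either direction).

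**Figure D1:**
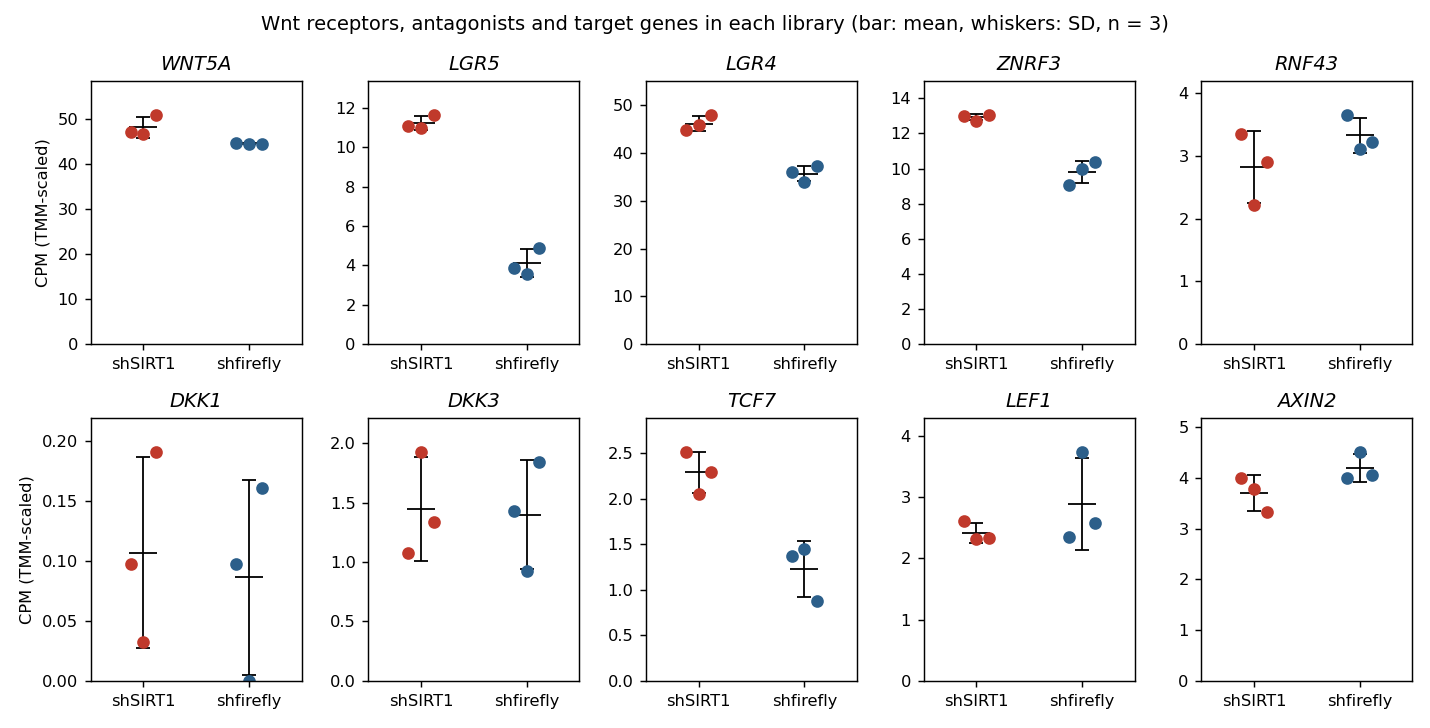
CPM of each of the 10 genes (y axis, linear and starting at 0, with its own scale per gene) in the 3 shSIRT1 libraries (red, left) and the 3 shfirefly libraries (blue, right); bars are means and whiskers SD. The groups are apart for LGR5, LGR4, ZNRF3, TCF7 and, narrowly, WNT5A, and overlap for the other genes.

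The ligand gene WNT5A encodes a Wnt that acts mostly without β-catenin, through ROR receptors. It was among the most abundant of the set, at 47.1, 46.6 and 50.9 CPM in shSIRT1, against 44.8, 44.5 and 44.6 CPM in shfirefly. Every shSIRT1 library was above every shfirefly library, but the difference was small, 1.08-fold, and did not pass (log2 fold change 0.11 ± 0.05 SE, adjusted p = 0.078). With scaling by library totals alone WNT5A passed at a log2 fold change of 0.23 (adjusted p = 0.00086), and its log2 fold change was 0.01 once corrected for the GC content and length of transcripts (adjusted p = 0.86). The gene lies on chromosome 3 (55465715 to 55490539, reverse strand, GRCh38).

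LGR5, a receptor for R-spondins best known as a marker of intestinal and hair follicle stem cells and itself a Wnt target there, had the clearest rise. Counts were 340, 337 and 304 in shSIRT1 and 119, 96 and 152 in shfirefly, or 11.1, 10.99 and 11.6 CPM in shSIRT1, against 3.88, 3.55 and 4.90 CPM in shfirefly. All 3 shSIRT1 libraries stood far above all 3 shfirefly libraries, among which replicate 3 was highest. Means were 11.2 ± 0.336 CPM in shSIRT1, against 4.11 ± 0.706 CPM in shfirefly (SD, n = 3 each), a log2 fold change of 1.44 ± 0.12 SE (adjusted p = 1.4e-09). Only 127 of the 4449 genes that rose did so by more. On chromosome 12 LGR5 takes up 71439770 to 71586310 (forward strand); TSPAN8, which overlaps it on the other strand, had 15 counts in shSIRT1, against 12 in shfirefly.

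LGR4, the broadly expressed relative of LGR5, rose far less in fold but from a higher level. It had 44.8, 45.8 and 47.8 CPM in shSIRT1, against 35.9, 33.9 and 37.2 CPM in shfirefly, without overlap. The mean was 46.1 ± 1.56 CPM in shSIRT1, against 35.7 ± 1.64 CPM in shfirefly (SD, n = 3 each; log2 fold change 0.37 ± 0.05 SE, adjusted p = 6.2e-06). Larger rises were seen for 2385 of the 4449 genes that rose. LGR4 is on chromosome 11 (27365961 to 27472775, reverse strand). LGR6, the third R-spondin receptor gene of the family, had 5 counts in shSIRT1, against 6 in shfirefly.

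Of the membrane ligase genes whose products LGR receptors counteract, ZNRF3 rose and RNF43 did not pass. ZNRF3 had 13.01, 12.7 and 13.03 CPM in shSIRT1, against 9.09, 9.95 and 10.4 CPM in shfirefly. All 3 shSIRT1 libraries were above all 3 shfirefly libraries (12.9 ± 0.171 CPM in shSIRT1, against 9.80 ± 0.648 CPM in shfirefly, SD, n = 3 each; log2 fold change 0.40 ± 0.09 SE, adjusted p = 0.00063). RNF43 had 3.36, 2.22 and 2.90 CPM in shSIRT1, against 3.65, 3.11 and 3.23 CPM in shfirefly. These ranges overlapped and RNF43 did not pass (log2 fold change -0.24 ± 0.17 SE, adjusted p = 0.25). ZNRF3 is on chromosome 22 (28883592 to 29057487, forward strand) and RNF43 on chromosome 17 (58352500 to 58417595, reverse strand). RNF43 shares 63267 bases of its span with TSPOAP1-AS1 on the other strand, which had 221 counts in shSIRT1, against 248 in shfirefly. On the same strand AC004687.2 overlaps it over 65096 bases, with 12 counts in shSIRT1, against 8 in shfirefly. SUPT4H1 shares 594 bases on that strand, with 12 counts in shSIRT1, against 6 in shfirefly. Whether counting used the strand is not given in the sources used here. The effect of these overlaps on the RNF43 counts was not tested.

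DKK1, a secreted antagonist that binds LRP5 and LRP6, was close to the limit of detection. It had 3, 1 and 5 counts in shSIRT1 and 3, 0 and 5 counts in shfirefly, too few for the test. The ratio of summed counts over scaled library sizes was 1.14, with a 95% exact interval of 0.391 to 3.40 that covers counting error only. A count of 0 would still allow 0.0968 to 0.115 CPM in these libraries. DKK3, a divergent Dickkopf protein whose action on Wnt signalling is less settled, had 1.08, 1.92 and 1.34 CPM in shSIRT1, against 1.43, 0.925 and 1.84 CPM in shfirefly. Replicates of each group spread over nearly the same range, and DKK3 did not pass (log2 fold change 0.04 ± 0.27 SE, adjusted p = 0.92). DKK1 is on chromosome 10 (52314296 to 52318042, forward strand) and DKK3 on chromosome 11 (11963106 to 12009769, reverse strand).

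TCF7 and LEF1 encode related DNA-binding partners of β-catenin, and both genes are also known as Wnt targets. TCF7 had 77, 63 and 60 counts in shSIRT1 and 42, 39 and 27 in shfirefly, or 2.51, 2.06 and 2.29 CPM in shSIRT1, against 1.37, 1.44 and 0.871 CPM in shfirefly. The groups were apart, at 2.29 ± 0.228 CPM in shSIRT1, against 1.23 ± 0.311 CPM in shfirefly (SD, n = 3 each; log2 fold change 0.90 ± 0.23 SE, adjusted p = 0.0019). LEF1 had 2.61, 2.32 and 2.33 CPM in shSIRT1, against 2.35, 3.74 and 2.58 CPM in shfirefly. The highest value belonged to shfirefly replicate 2, the ranges overlapped, and LEF1 did not pass (log2 fold change -0.24 ± 0.19 SE, adjusted p = 0.29; -0.03 without shfirefly replicate 2). TCF7 is on chromosome 5 (134114711 to 134151865, forward strand) and LEF1 on chromosome 4 (108047545 to 108168956, reverse strand). The end of TCF7 shares 2931 bases with SKP1 on the other strand, an abundant gene with 146 ± 2.80 CPM in shSIRT1, against 147 ± 1.01 CPM in shfirefly (SD, n = 3 each; log2 fold change -0.01, adjusted p = 0.85).

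AXIN2, a scaffold of the β-catenin destruction complex and the most widely used feedback target of Wnt signalling, did not pass. It had 4.01, 3.78 and 3.32 CPM in shSIRT1, against 4.01, 4.51 and 4.06 CPM in shfirefly. Replicate 1 of shSIRT1 stood just inside the shfirefly range, and the log2 fold change was -0.17 ± 0.14 SE (adjusted p = 0.32). AXIN2 is on chromosome 17 (65528563 to 65561647, reverse strand).

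**Figure D2:**
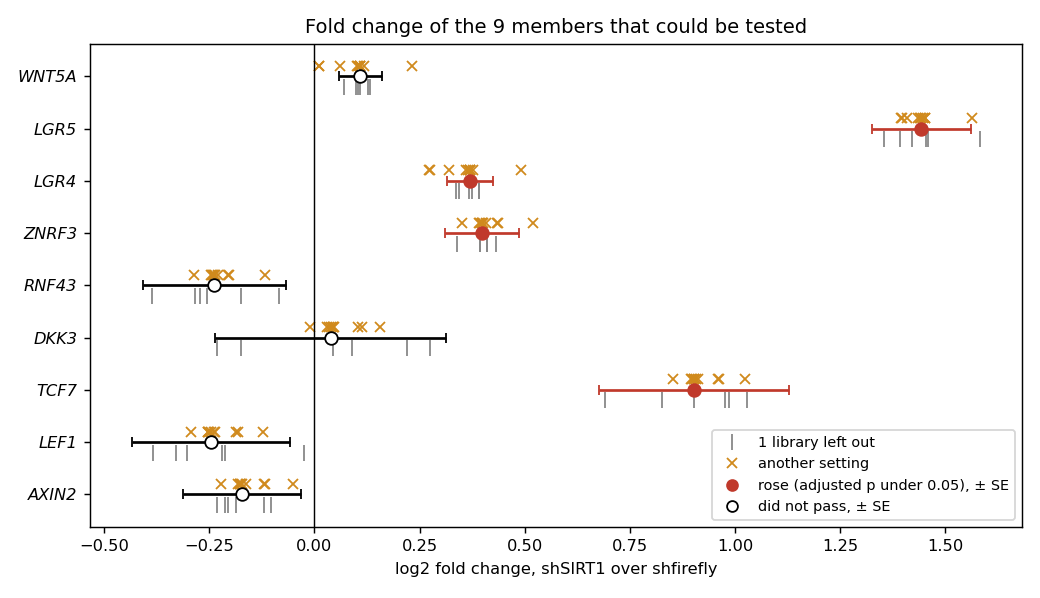
Log2 fold change of shSIRT1 over shfirefly (x axis) for the 9 genes tested; circles are the estimates with SE (red, rose; open, did not pass), grey ticks leave out 1 library, and orange crosses use another normalization, filter, model or correction. LGR5 stays between 1.35 and 1.58 and TCF7 between 0.69 and 1.03, while DKK3 lies on both sides of 0.

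In the authors' deposited table the log2 fold changes were 1.446 for LGR5, 0.369 for LGR4, 0.399 for ZNRF3 and 0.901 for TCF7, with adjusted p of 0.0099 or lower. That table gives WNT5A an adjusted p of 0.18 and DKK1 none.

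Ratios between related genes in the same library do not depend on how libraries are scaled. They were computed for 3 pairs after the values had been seen. LGR5 counts were 0.247, 0.240 and 0.243 of LGR4 counts in shSIRT1 and 0.108, 0.105 and 0.132 in shfirefly. ZNRF3 counts were 3.87, 5.74 and 4.49 times those of RNF43 in shSIRT1 and 2.49, 3.20 and 3.21 times in shfirefly. TCF7 reached 0.963, 0.887 and 0.984 of the LEF1 count in shSIRT1 and 0.583, 0.386 and 0.338 in shfirefly. Each of the 3 ratios was higher in all shSIRT1 libraries, by 2.12-fold, 1.58-fold and 2.17-fold for the pairs in that order. The exact two-sided permutation p was 0.1 for each, the smallest that 3 against 3 allows, so none passes and adjustment over the 3 pairs leaves it at 0.1.

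**Figure D3:**
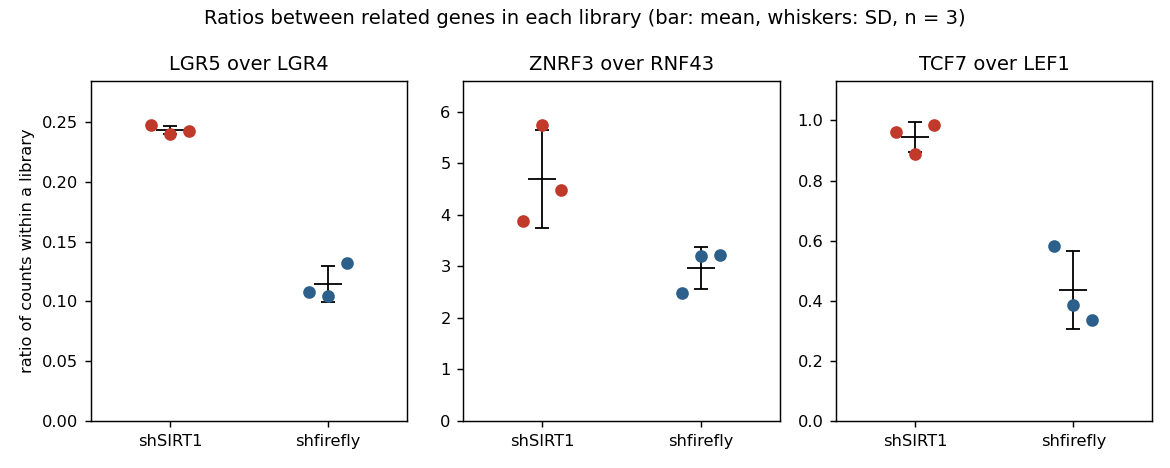
Ratio of raw counts within each library (y axis, starting at 0) for LGR5 over LGR4, ZNRF3 over RNF43 and TCF7 over LEF1, in shSIRT1 (red, left) and shfirefly (blue, right); bars are means and whiskers SD over 3 libraries. For TCF7 over LEF1 the shSIRT1 libraries sit between 0.887 and 0.984, all above the shfirefly libraries at 0.338 to 0.583.

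Divided by the length of annotated exons, levels of the 10 genes were dominated by the transcripts of a ligand and a receptor. LGR4 and WNT5A led in shSIRT1 at 7.28 ± 0.246 and 6.52 ± 0.315 CPM per kilobase (SD, n = 3), then LGR5 at 2.14 ± 0.0641, ZNRF3 at 1.85 ± 0.0246 and AXIN2 at 0.709 ± 0.0668. In shfirefly WNT5A and LGR4 led at 6.04 ± 0.0193 and 5.63 ± 0.258, then ZNRF3 at 1.41 ± 0.0930, AXIN2 at 0.803 ± 0.0531 and LGR5 at 0.783 ± 0.134 CPM per kilobase. LGR5 was thus above ZNRF3 in every shSIRT1 library, whereas in shfirefly its range overlapped those of its neighbours AXIN2 and LEF1. The order then ran LEF1, RNF43, DKK3, TCF7 and DKK1 in both groups. LEF1, RNF43, DKK3 and TCF7 overlapped with their neighbours in shSIRT1, as did LEF1 and RNF43 in shfirefly, and DKK1 was lowest, at 0.0486 CPM per kilobase in shSIRT1 and 0.0391 CPM per kilobase in shfirefly. With the length of the longest transcript instead, the order changed only for RNF43 and DKK3, in shSIRT1.

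Among 13751 other genes averaging at least 1 CPM, those whose pattern was most like LGR5 were CLSPN, DCDC2 and LINC00632, with root mean square differences of 0.05, 0.08 and 0.09 in gene-centred log2 CPM over the 6 libraries. CLSPN encodes a replication checkpoint adaptor, DCDC2 a doublecortin-domain protein of cilia, and LINC00632 a long non-coding RNA. Their log2 fold changes were 1.42, 1.37 and 1.45. Closest to TCF7 were SOX4, a developmental transcription factor gene, the desmosomal cadherin gene DSG3 and the creatine kinase gene CKB, at 0.09, 0.10 and 0.11. The group difference is part of this measure, so genes changed by like amounts score as alike.

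The rest of the pathway was described with 8 lists of 113 genes, of which 78 were tested. Of these, 24 rose, 27 fell and 27 did not pass, a share called of 65.4% beside 52.8% of all tested genes (26.8% higher, 26.0% lower), with a median log2 fold change of -0.03.

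Of 18 further Wnt ligand genes 6 were tested, and 3 of them rose, beside 26.8% of all tested genes (median log2 fold change 0.28). The count was 5 with library totals alone and with a correction for GC and length, and 2 with DESeq2, without shSIRT1 replicate 1 and without shfirefly replicate 1. WNT7B had 40.8, 37.5 and 41.7 CPM in shSIRT1, against 23.9, 23.0 and 25.2 CPM in shfirefly (log2 fold change 0.73 ± 0.06 SE, adjusted p = 2e-09). WNT5B, the most abundant ligand transcript by CPM, averaged 157 ± 6.77 CPM in shSIRT1, against 134 ± 6.70 CPM in shfirefly (SD, n = 3 each; log2 fold change 0.23). WNT9A rose by 0.33 on the log2 scale (adjusted p = 0.020), a call lost without shSIRT1 replicate 1 (adjusted p = 0.14), without shfirefly replicate 1 (0.088) and with DESeq2 (0.086). WNT7A had 44.7 ± 0.349 CPM in shSIRT1, against 41.0 ± 1.78 CPM in shfirefly (SD, n = 3 each) and did not pass (adjusted p = 0.052), but passed with library totals alone (0.00065) and with the GC and length correction (0.0045). Both genes of the list on ligand processing and secretion fell: PORCN, which attaches the lipid, averaged 31.3 ± 0.667 CPM in shSIRT1, against 47.7 ± 1.01 CPM in shfirefly (SD, n = 3 each; log2 fold change -0.61), and the carrier gene WLS fell by 0.25 on the log2 scale.

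Among 21 R-spondin and other receptor genes 15 were tested, of which 6 rose and 5 fell (median log2 fold change -0.01). The share called was 73.3%, beside 52.8% of all tested genes. With library totals alone 7 rose and 3 fell, and with the GC and length correction 5 rose and 6 fell. RSPO4, the sole R-spondin with more than a few counts, had 8.70, 9.23 and 8.14 CPM in shSIRT1, against 15.6, 19.1 and 16.7 CPM in shfirefly, without overlap (log2 fold change -0.98 ± 0.09 SE, adjusted p = 1.4e-08). RSPO1, RSPO2 and RSPO3 had 1, 0 and 3 counts in shSIRT1 and 0, 2 and 4 in shfirefly. The R-spondin gene thus fell while the receptor genes LGR4 and LGR5 rose. The genes of the ROR receptors for WNT5A parted. ROR1 rose to 44.5 ± 1.34 CPM in shSIRT1, against 33.3 ± 0.457 CPM in shfirefly (SD, n = 3 each, adjusted p = 7e-07). ROR2 fell to 30.5 ± 1.59 CPM in shSIRT1, against 52.3 ± 1.16 CPM in shfirefly (SD, n = 3 each, adjusted p = 1.3e-10). The receptor genes RYK and PTK7 also fell (log2 fold change -0.19 and -0.17, adjusted p = 0.00067 and 0.00078). Their calls under other settings are not given here. Of the Frizzled genes FZD4 and FZD7 rose (log2 fold change 0.31 and 0.28) and FZD8 fell (-0.59). FZD3 also rose (log2 fold change 0.38, adjusted p = 0.027), but correcting for GC and length brought it to 0.05, and its call was lost without shSIRT1 replicate 3 (adjusted p = 0.15), without shfirefly replicate 1 (0.16), with upper-quartile factors (0.05004) and with DESeq2 (0.053). The co-receptor genes LRP5 and LRP6 had log2 fold changes of 0.24 and 0.18 and both passed, but LRP6 was at -0.0037 with the GC and length correction.

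Of 17 other antagonist genes 6 were tested and 4 fell (66.7% called, beside 52.8% of all tested genes, of which 26.0% fell; median log2 fold change -0.28). The count was 3 with library totals alone, the 1 CPM filter, the GC and length correction, and in 4 of the 6 fits that left out 1 library (shSIRT1 replicate 2, shSIRT1 replicate 3, shfirefly replicate 1 or shfirefly replicate 2). TRABD2B, a membrane protease that cleaves Wnt ligands, had 26.7, 20.8 and 24.6 CPM in shSIRT1, against 44.3, 41.6 and 41.7 CPM in shfirefly (log2 fold change -0.82 ± 0.07 SE, adjusted p = 3.2e-08). The decoy receptor gene SFRP1, the most abundant antagonist transcript by CPM, fell by 0.21 on the log2 scale, with 262 ± 7.35 CPM in shSIRT1, against 303 ± 10.5 CPM in shfirefly (SD, n = 3 each). KREMEN1, a receptor for Dickkopf proteins, fell by 0.18 (adjusted p = 0.013), and this call was lost with library totals alone (log2 fold change -0.06), with the GC and length correction (-0.13) and without shSIRT1 replicate 3 (-0.14). NOTUM and SFRP2 were chosen after their values were seen. NOTUM, an enzyme that removes the lipid from Wnt proteins, had 29 counts in shSIRT1, against 65 in shfirefly (log2 fold change -1.14, adjusted p = 0.016). The NOTUM call was lost without shSIRT1 replicate 2 (adjusted p = 0.071), shfirefly replicate 1 (0.060) or shfirefly replicate 2 (0.065) and with DESeq2 (0.080). SFRP2 had no counts in shSIRT1, against 27 in shfirefly. With 3 counts set as the limit over the shSIRT1 group, it would be 8.88-fold lower. That figure leaves out the error of the 27 counts and the spread of replicates.

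Among 14 destruction complex and dishevelled genes 5 rose, 3 fell and 6 did not pass (57.1% called, beside 52.8% of all tested genes; median log2 fold change 0.03; 3 rose with upper-quartile factors, without shSIRT1 replicate 2 or without shfirefly replicate 1, and 2 without shfirefly replicate 3). CTNNB1, which encodes β-catenin, had 281 ± 3.04 CPM in shSIRT1, against 245 ± 7.04 CPM in shfirefly (SD, n = 3 each; log2 fold change 0.20, adjusted p = 9e-05). AMER1, a membrane partner of APC, rose by 0.77 on the log2 scale. APC itself had 27.7, 23.8 and 41.5 CPM in shSIRT1, against 11.04, 13.5 and 17.97 CPM in shfirefly, highest in replicate 3 of each group (log2 fold change 1.12 ± 0.31 SE, adjusted p = 0.042). The APC call was lost when shSIRT1 replicate 1 (adjusted p = 0.089), shfirefly replicate 1 (0.12), shfirefly replicate 2 (0.13) or shfirefly replicate 3 (0.058) was left out, with log2 fold changes of 0.96 to 1.32 in these fits. It was also lost with no filter on low counts (0.085) and with the GC and length correction (0.0503), while DESeq2 gave 1.13 with an adjusted p of 0.0016. TNKS, whose product marks axins for degradation, fell by 0.29, DVL3 by 0.23 and the kinase gene CSNK1A1 by 0.18 on the log2 scale. The CSNK1A1 call was lost with library totals alone (log2 fold change -0.06).

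All 11 other nuclear effector genes were tested, of which 3 rose, 1 fell and 7 did not pass (36.4% called, beside 52.8% of all tested genes; median log2 fold change 0.11; 8 rose and 1 fell with library totals alone, 6 and 1 with the GC and length correction; 2 fell with upper-quartile factors or without shfirefly replicate 3). PYGO1, a coactivator gene, averaged 11.4 ± 0.529 CPM in shSIRT1, against 6.48 ± 0.835 CPM in shfirefly, and CTNNBIP1, an inhibitor of β-catenin binding to TCF, 17.7 ± 1.11 CPM in shSIRT1, against 13.6 ± 0.965 CPM in shfirefly (SD, n = 3 each; adjusted p = 1.3e-06 and 0.00045). The corepressor gene TLE2 fell to 2.57 ± 0.410 CPM in shSIRT1, against 5.47 ± 0.333 CPM in shfirefly (SD, n = 3 each; log2 fold change -1.08). TCF7L1, a further TCF gene, rose by 0.23 on the log2 scale (adjusted p = 0.021), a call lost without shSIRT1 replicate 3 (adjusted p = 0.12), shfirefly replicate 1 (0.077) or shfirefly replicate 2 (0.056), with upper-quartile factors (0.066) and with DESeq2 (0.077). TCF7L2 did not pass (log2 fold change 0.04; -0.0059 with upper-quartile factors).

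Of 19 other textbook Wnt target genes 14 were tested, of which 8 fell, 3 rose and 3 did not pass (78.6% called, beside 52.8% of all tested genes, of which 26.0% fell; median log2 fold change -0.35). Many of these genes have other regulators, and the list is not specific to Wnt. The count that fell was 6 with library totals alone, 7 with DESeq2 or the GC and length correction, and 9 without shfirefly replicate 3. It was also 7 without shSIRT1 replicate 1, shSIRT1 replicate 3 or shfirefly replicate 2. CCN4, a matricellular protein gene, had 9.58, 8.97 and 7.37 CPM in shSIRT1, against 22.8, 20.7 and 19.8 CPM in shfirefly (log2 fold change -1.28 ± 0.09 SE, adjusted p = 3.1e-10). The TGF-β pseudoreceptor gene BAMBI fell by 0.55 and the nuclear receptor gene PPARD by 0.50 on the log2 scale. SP5, a zinc finger repressor gene, had 1.83, 1.21 and 1.80 CPM in shSIRT1, against 0.879, 0.814 and 0.807 CPM in shfirefly (log2 fold change 0.94 ± 0.26 SE, adjusted p = 0.0044). The cyclin gene CCND1 and the ephrin receptor gene EPHB2 rose by 0.35 and 0.25. Among targets with too few counts for the test, NKD2 had 4 counts in shSIRT1, against 16 in shfirefly. ASCL2 had 18 counts in shSIRT1, against 32 in shfirefly. For both genes the CPM of every shSIRT1 library was below that of every shfirefly library. CDX1 had 0 counts in shSIRT1, against 1 in shfirefly, and TBXT had none. CDX2, an intestinal homeobox gene chosen after its values were seen, had 23 counts in shSIRT1, against none in shfirefly. With 3 counts set as the limit over the shfirefly group, it would be 7.77-fold higher. That figure leaves out the error of the 23 counts and the spread of replicates.

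Of 11 planar cell polarity genes, which serve the β-catenin-independent branch, 10 were tested, with 4 higher, 4 lower and 2 that did not pass (80.0% called, beside 52.8% of all tested genes; median log2 fold change -0.00397; 5 higher and 2 lower with library totals alone; also 2 lower without shSIRT1 replicate 2, shSIRT1 replicate 3 or shfirefly replicate 1). VANGL1 had 51.7 ± 0.227 CPM in shSIRT1, against 34.8 ± 1.12 CPM in shfirefly (SD, n = 3 each; log2 fold change 0.57, adjusted p = 5.2e-09). The formin gene DAAM1 rose by 0.52 while its relative DAAM2 fell by 0.45 on the log2 scale. CELSR2 rose by 0.40 and PRICKLE2 fell by 0.46. PRICKLE1 fell by 0.18 (adjusted p = 0.030), a call lost in 4 of the 6 fits that left out 1 library (without shSIRT1 replicates 1, 2 and 3 in turn and without shfirefly replicate 1; adjusted p 0.054 to 0.11), with library totals alone (0.49), with no filter (0.081) and with DESeq2 (0.0996).

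**Figure D4:**
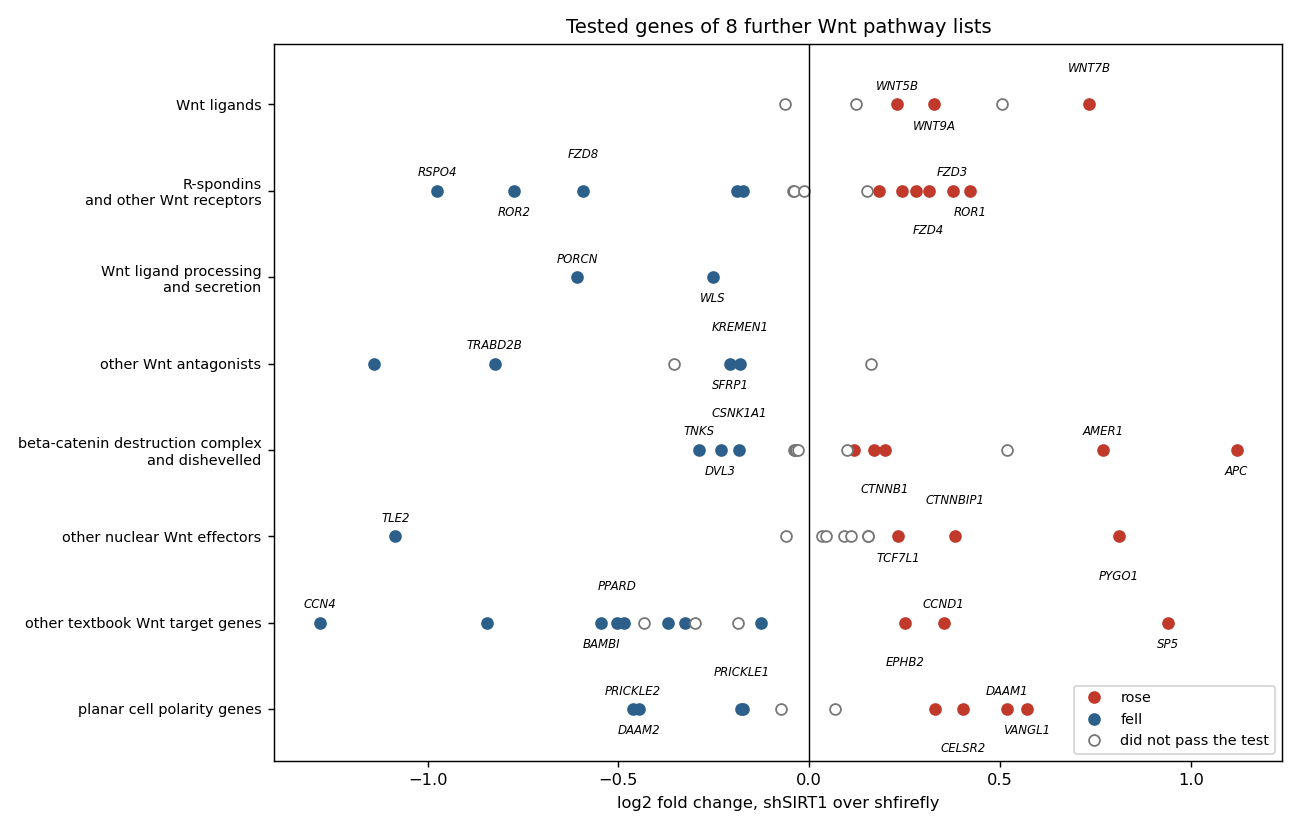
Log2 fold change of shSIRT1 over shfirefly (x axis) for the 78 tested genes of 8 further Wnt pathway lists (y axis); red genes rose, blue genes fell and open circles did not pass the test, with names for the largest changes averaging at least 1 CPM. The 3 ligands that passed, of 6 tested, lie right of 0, and the 4 antagonists that passed, of 6 tested, lie left of it. Of all tested genes 26.8% rose and 26.0% fell. The calls of WNT9A, KREMEN1 and NOTUM were lost under some other settings. Receptors and planar polarity genes lie on both sides of 0.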

How the data were processed

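Read counts were measured by RNA sequencing in 6 libraries. The labels' protocols name TRI reagent for extraction and a stranded mRNA kit (TruSeq) for library making. Trimmomatic, STAR, DESeq2 and GRCh38 are named per the submitters' processing notes, without versions, a counter or its strand setting. The deposited table holds raw counts per gene, which were the sole input to the tests. It also holds normalized counts that the authors rounded (treated as a score) and the authors' linear fold (ratio), log2 fold change and p-values, per the file headers; of these only the authors' log2 fold changes and adjusted p are quoted. Columns were matched to samples by name.

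Genes were kept by filterByExpr (16591 of 32875 with a count), scaled by TMM (factors 0.948 to 1.05) and tested with edgeR 4.0.16 (estimateDisp, robust glmQLFit, glmQLFTest) on group alone, in R 4.3.3. Adjustment (Benjamini-Hochberg) was over the whole tested table. Standard errors are the absolute log2 fold change over the square root of F. Limits for a count of 0 (3 counts) and 95% exact intervals cover counting error only. No 2 libraries agreed within sampling noise (chi-square per gene 2.93 to 6.57 within groups). Positions come from GENCODE 29 (58504 of 60691 genes matched) and may differ from the authors' annotation; 9 of the 10 genes overlap another annotated gene. The procedure was tested on simulated counts. It recovered 69.8% of 96 genes changed 1.5-fold and 78.6% of 98 genes changed 2-fold, and called 0.081% of unchanged genes. With so few genes changed, the simulation cannot check the scaling between libraries in data where 52.8% of tested genes were called.

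The 10 genes and the lists were chosen with earlier results of these data known. Named genes of each list are the 3 largest rises and falls that passed among genes averaging at least 1 CPM; the 3 genes most alike are given for the 2 members with the largest change. LRP5, LRP6, LGR6, RSPO1 to RSPO3, WNT7A, TCF7L2, NOTUM, SFRP2, CDX2 and the marker genes were named outside this rule, after their values were seen. So were RYK, PTK7, FZD7, NKD2, ASCL2, CDX1 and TBXT. Alternatives were RLE, upper-quartile and total-count scaling, DESeq2 1.42.0, other filters, no robust estimation, the replicate number as a block, a spline offset for GC and length, and leaving out each library.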

Additional observations from a re-analysis of the deposited data

How the results depend on the processing

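Over 16 alternatives LGR5, LGR4, ZNRF3 and TCF7 kept their rise and passed in each (adjusted p up to 0.013, for TCF7), and RNF43, LEF1 and AXIN2 stayed negative without passing. The count of members that rose was 4 in each alternative except library totals alone, where WNT5A made it 5 (log2 fold change 0.23). DKK3 turned to -0.010 with upper-quartile factors and ranged from -0.23 to 0.28 when 1 library was left out. HIF1A (log2 fold change 0.03, adjusted p = 0.59) turned to -0.022 with upper-quartile factors and to -0.20 with the GC and length offset, alone or with the replicate block, where it passed (adjusted p = 3.8e-05 and 2.2e-06); it also passed, higher, with library totals alone (0.15, adjusted p = 0.0083), and leaving out 1 library gave -0.00424 to 0.067. LRP6 turned to -0.0037 with the GC and length offset, alone or with the replicate block, and TCF7L2 to -0.0059 with upper-quartile factors. The cause was not tested. Leaving out 1 library, genes called ranged over 3824 to 4425 higher and 3902 to 4444 lower. The ratio of ratios for LGR5 over LGR4 ranged from 2.03 to 2.29, for ZNRF3 over RNF43 from 1.41 to 1.72 and for TCF7 over LEF1 from 1.95 to 2.61 (chosen after seeing the data).

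The labels give replicate numbers but state no pairing. Deviations of same-numbered libraries correlated at -0.01, -0.07 and 0.13, and only those numbered 3 correlated best with their own number. These values do not settle whether the numbers mark pairs. With the replicate block 4711 genes rose and 4465 fell, 4 members rose, and LGR5 was at 1.45. WNT7A passed with the block (adjusted p = 0.040), and APC was at 1.12 (adjusted p = 8.2e-11). DKK1, with 9 and 8 counts in shSIRT1 and shfirefly, had too few counts for the test. The SE of the log2 fold change was 0.27 for DKK3 and 0.23 for TCF7, and the part of depth in these errors was not tested.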
